A study of Mus musculus with 19 samples.

Results

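Macrophages are described by the genes they switch on under opposing signals, and 10 such polarization markers were followed here in retinal microglia: *Arg1*, *Nos2*, *Chil3*, *Retnla*, *Mgl2*, *Il4ra*, *Socs3*, *Egr2*, *Odc1* and *Acod1*. They were chosen by name, with earlier results of these data known. Of the 10, 8 matched a row by symbol among the 27299 genes of the RNA-seq data. *Nos2* and *Retnla* were not analysed here. The data hold 6 samples of retinal microglia taken on day 3 after laser treatment, called CNV d3, and 6 taken from mice without laser treatment, called control. Laser burns break the membrane under the retina and start choroidal neovascularization (CNV), the growth of vessels from the choroid, and each lasered eye had 6 burns. The mice were 8 weeks old in both groups, the labels name the C57BL/6J strain, and the methods of the study name *Cx3cr1*GFP/+ mice, in which 1 copy of *Cx3cr1* is replaced by a fluorescent reporter. The cells of both groups were sorted as CD45+ (low for CD45 in the methods), CD11b+ and CX3CR1+ and as negative for Ly6C, which marks monocytes, and for Ly6G, which marks neutrophils. Nothing states that the samples of a group are separate mice, so all p-values measure the spread between samples, which may be technical.

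In the scheme from which these markers come, interferon-gamma and bacterial products drive classical activation, with *Nos2* making nitric oxide from arginine and *Acod1* making itaconate from an intermediate of the citrate cycle. IL-4 and IL-13 drive alternative activation through the receptor subunit IL-4Ra and the transcription factor STAT6, and raise *Arg1*, *Chil3*, *Retnla*, *Mgl2* and *Egr2* in mouse macrophages. Arginase 1 turns arginine into ornithine, from which ODC1 makes the polyamine putrescine, and SOCS3 is a feedback inhibitor of cytokine receptors that signal through JAK and STAT3.

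The stretches shown next lie before the RefSeq starts of 4 of the markers, on GRCm38.p6 and as read on the strand of the gene. They are shown because *Socs3*, *Odc1* and *Mgl2* rose in CNV d3, and because *Chil3* holds the same letters as *Socs3* at a STAT motif. Windows of 250 bases before the start were searched on both strands for the STAT motif TTCNNNGAA, the STAT6 motif (the same ends with 4 bases between them), the E-box CACGTG, an NF-kB motif, the GC box GGGCGG and the TATA motif TATAAA, and capitals mark the matches. Bases inside an exon of Gencode M21 were left out of the stretches.

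Socs3 (chr11:117969452-117969616, minus strand): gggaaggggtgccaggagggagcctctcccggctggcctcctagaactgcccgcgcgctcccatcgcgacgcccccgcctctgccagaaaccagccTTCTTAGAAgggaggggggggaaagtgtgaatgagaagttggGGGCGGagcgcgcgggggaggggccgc
Chil3 (chr3:106167565-106167814, minus strand): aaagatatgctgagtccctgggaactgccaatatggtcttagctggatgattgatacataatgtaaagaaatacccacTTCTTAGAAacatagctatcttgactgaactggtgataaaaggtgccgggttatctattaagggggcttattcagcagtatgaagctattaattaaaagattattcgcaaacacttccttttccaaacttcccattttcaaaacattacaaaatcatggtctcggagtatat
Odc1 (chr12:17544623-17544793, plus strand): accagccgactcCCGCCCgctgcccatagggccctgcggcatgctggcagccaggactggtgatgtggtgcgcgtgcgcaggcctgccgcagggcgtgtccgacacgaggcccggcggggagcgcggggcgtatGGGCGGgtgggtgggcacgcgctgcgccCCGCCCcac
Mgl2 (chr11:70130107-70130328, plus strand): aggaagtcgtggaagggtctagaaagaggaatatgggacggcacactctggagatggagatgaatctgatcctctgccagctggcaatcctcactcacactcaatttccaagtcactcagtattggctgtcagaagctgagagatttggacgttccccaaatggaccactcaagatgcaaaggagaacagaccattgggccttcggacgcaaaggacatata

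The *Socs3* window held TTCTTAGAA at position -154 from the start and 1 GC box, and the *Chil3* window held TTCTTAGAA at position -172. The STAT motif was found in 7.01% of the 32817 windows of all genes. *Odc1* held 4 GC boxes, a motif of 32.7% of all windows, 3 of them in the stretch shown, and 80% of the bases of its window were G or C. None of the 6 motifs was found in the window of *Mgl2*. The window of *Il4ra* held 1 GC box at position -76 and that of *Acod1* a TATA motif at position -28, which 12.4% of all windows held. *Egr2* has several starts and was not printed, and the table used had entries for 8 of the 10 markers, of which 7 were measured. The STAT6 motif (5.85% of all windows), the E-box (6.02%) and the NF-kB motif (0.981%) were in none of the windows of *Socs3*, *Chil3*, *Odc1*, *Mgl2*, *Il4ra* and *Acod1*. An E-box was in 1 of the windows of *Egr2*, at position -27, and a STAT6 motif in that of *Retnla*, at position -145. These matches describe letters, not bound sites.

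Each deposited value is a read count over the size factor of its sample, called normalized counts here. Reads on genes ranged from 10963178 to 22335233 in control samples and from 23532260 to 29523018 in CNV d3 samples, so that 1 read was worth 0.739 to 1.99 normalized counts, the most in control replicate 6. Genes with at least 1 read numbered 15076 to 17224 in control and 18276 to 19116 in CNV d3, ranges that do not overlap, and the part of this in genes without control reads was not tested. The test was limma on log2(normalized counts + 1), adjusted by Benjamini-Hochberg over the 27299 genes, and fold changes are CNV d3 against control on this scale, which understates the change of genes that are low in all samples and can exceed the ratio of the means where single samples are at 0. A gene rose or fell if its adjusted p was under 0.05, and was a differentially expressed gene (DEG) if its log2 fold change was also above 1.5 in size. Of the microglia markers, *P2ry12* was between 158000 and 214700 normalized counts in control and between 44020 and 81080 in CNV d3. In this list 9 of 12 markers fell, where 4.57% of all genes fell.

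Of the 8 measured polarization markers, 4 rose in CNV d3 (*Socs3*, *Odc1*, *Il4ra* and *Mgl2*), where 8.29% of all genes rose. None fell by limma, at an unadjusted p under 0.05 or by edgeR or DESeq2 (0 each), and 4.57% of all genes fell. At an unadjusted p under 0.05, 6 of the 8 were higher, and edgeR called 3 and DESeq2 5. Of all 27299 genes, edgeR called 1952 higher and 1181 lower, and DESeq2 2493 and 2170. With the filter on low counts, which removed *Mgl2*, *Chil3* and *Egr2*, 3 markers rose and 0 fell. With it, 2193 of 12943 genes rose and 1546 fell. The share of all genes at an unadjusted p was not counted. *Mgl2* alone was a DEG, with 3.91% of all genes DEG in this direction and 1.07% in the other. The same 4 markers were higher in every CNV d3 sample than in any control sample, which held for 4.64% of all genes, and 0 were lower in every one, which held for 2.83%. The median log2 fold change was 1.48 over the 8 markers, or 1.37 with genes without control reads at their lower bound, and 0.15 over all genes. In bulk samples, a change in the share of a cell type and a change in its RNA per cell cannot be told apart.

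**Figure D1:**
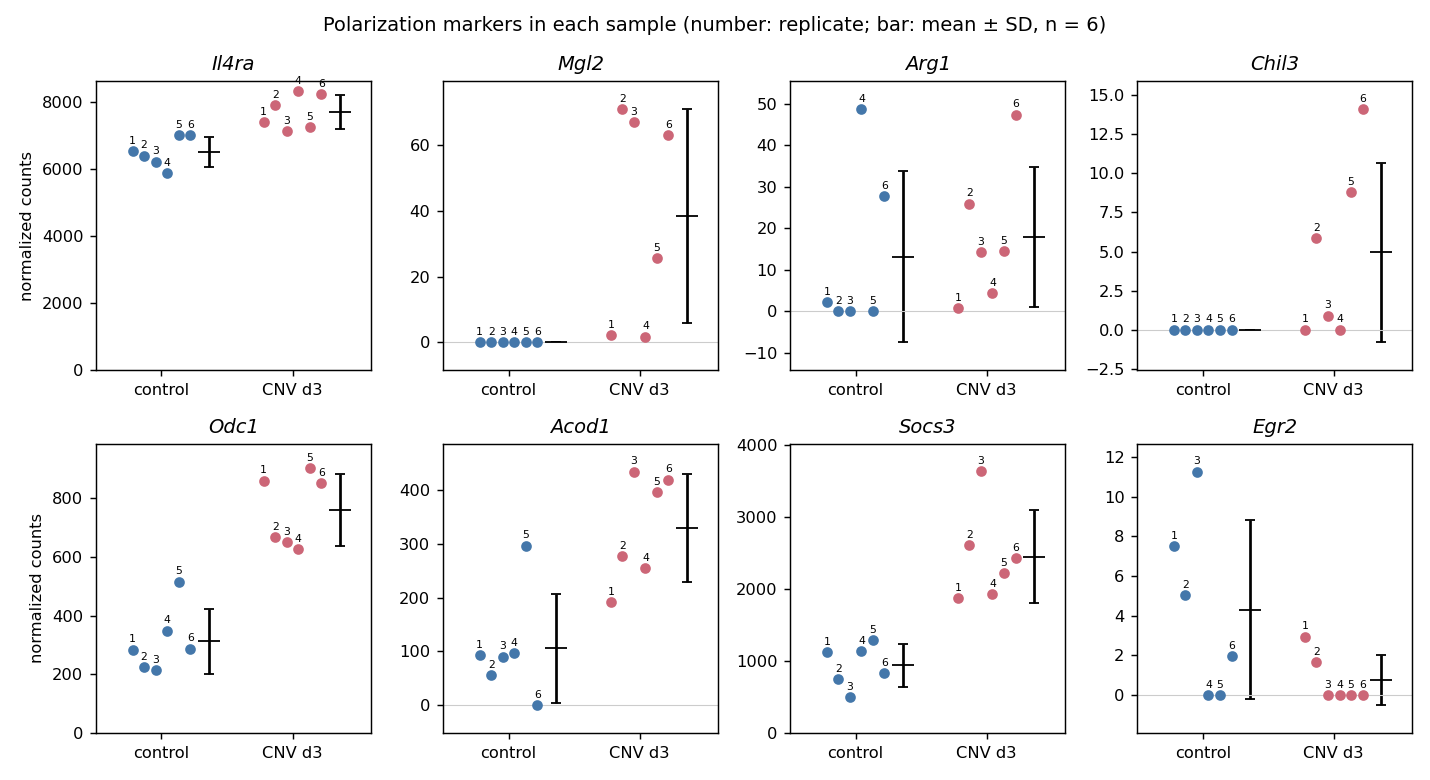
Normalized counts (vertical axis, its own scale in each panel) of the 8 measured markers in the 6 control (blue) and 6 CNV d3 (red) samples, numbered by replicate, with the mean ± SD as a bar. The groups do not overlap for Il4ra, Mgl2, Odc1 and Socs3, while CNV d3 replicates 1 and 4 lie near 0 for Mgl2 and control replicate 5 lies at 297.1 for Acod1.

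*Il4ra* (chr7:125552120-125579474, plus strand, GRCm38) encodes the receptor subunit that IL-4 and IL-13 share. Its lowest, median and highest values were 5887, 6470 and 7018 normalized counts in control and 7130, 7652 and 8336 in CNV d3. The highest control sample (replicate 6) lay just below the lowest CNV d3 sample (replicate 3), so the groups were apart by a narrow margin. The means were 6515 ± 446 and 7708 ± 518 (SD, n = 6 each), a log2 fold change of 0.24 with a standard error (SE) of 0.07 and a limma adjusted p of 0.0417. The exact permutation test over the 924 labelings of the 12 samples gave a two-sided p of 0.00216, the smallest that 6 against 6 samples allow. The adjusted p was 0.0597 by edgeR, 0.0542 without control replicate 4, 0.0508 without CNV d3 replicate 6 and 0.106 with the replicate number as a block, so this call was lost in each of them. It was kept in 15 of the 21 alternatives, and the adjusted p ranged from 0.00244 by DESeq2 to 0.219 by limma without trend. Exons of *Il4ra* overlap those of *Gm44876*, and reads shared by their exons were left out of the counts.

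*Mgl2* (chr11:70130329-70137550, plus strand), a C-type lectin of alternatively activated macrophages and of some dendritic cells, had no read in any control sample. In CNV d3 replicates 1 to 6 it had 3, 85, 75, 2, 32 and 76 reads, or 2.22, 71.1, 67.1, 1.73, 25.6 and 63.1 normalized counts. Replicates 1 and 4 thus stood close to the floor, and the other 4 carried nearly all reads. The mean in CNV d3 was 38.5 ± 32.6 normalized counts (SD, n = 6), at least 6.46-fold higher than 3 reads in the shallowest control sample (5.96 normalized counts). The limma log2 fold change was 4.36 with an SE of 0.92, an adjusted p of 0.00532 and a two-sided exact permutation p of 0.00216.

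Of the 7 other dendritic cell markers that rose, 4 were lower in CNV d3 replicates 1 and 4 than in the other 4 samples, as *Mgl2* was, and 3 were not. *Cd209a*, a lectin of monocyte-derived dendritic cells, was at 0.739, 273.4, 379.4, 4.33, 167.4 and 510.1 normalized counts in CNV d3 replicates 1 to 6, and was at 0 in all control samples. *Clec10a*, the paralog of *Mgl2*, was at 0.739, 67.7, 80.5, 0, 44.0 and 100.5, and *Flt3*, a receptor of the dendritic lineage, at 62.8, 134.6, 290.8, 51.9, 138.6 and 274.1. *Klrd1*, a receptor of natural killer cells, was the fourth of this order. Against it, *Xcr1*, a chemokine receptor of cross-presenting dendritic cells, was second highest in replicate 1 (73.1), and *Ccr7*, a receptor for migration to lymph nodes, was higher in replicate 1 (532.7) than in replicate 5 (374.9) and at 0 in replicate 4. *Itgax*, an integrin of dendritic cells and activated microglia, was higher in replicate 4 than in replicate 2. Among the 7 other alternative activation markers that rose, 6 were lower in replicates 1 and 4, *Cd209a* and *Clec10a* included, and *Alox15* was not. Of 6 monocyte markers that rose, 4 were lower there (*Ccr2*, *Fn1*, *Ms4a4c* and *Plac8*), and *Ly6c2* and *S100a4* were not. The order was not particular to these lists. Of the other polarization markers, *Socs3*, *Acod1*, *Arg1* and *Chil3* were also lower in replicates 1 and 4, and *Il4ra*, *Odc1* and *Egr2* were not. *Vim*, *Ass1* and *Gbp2* had this order too, and how many of all genes had it was not counted. The sum of the microglia markers was highest in replicates 1 (938200) and 4 (880900), against 633000 to 792200 in the others. These replicates and *Klrd1*, *Xcr1*, *Ccr7*, *Itgax*, *Alox15*, *Ms4a4c*, *Plac8*, *S100a4* and *Vim* were singled out after the values were seen, so the counts are a description. The log2 fold changes were 6.05 (SE 1.32) for *Cd209a*, 4.24 (SE 1.14) for *Clec10a* and 5.05 (SE 0.84) for *Flt3*. *Mgl2* and *Clec10a* are close paralogs, so reads that map to both may be missing from their counts.

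**Figure D2:**
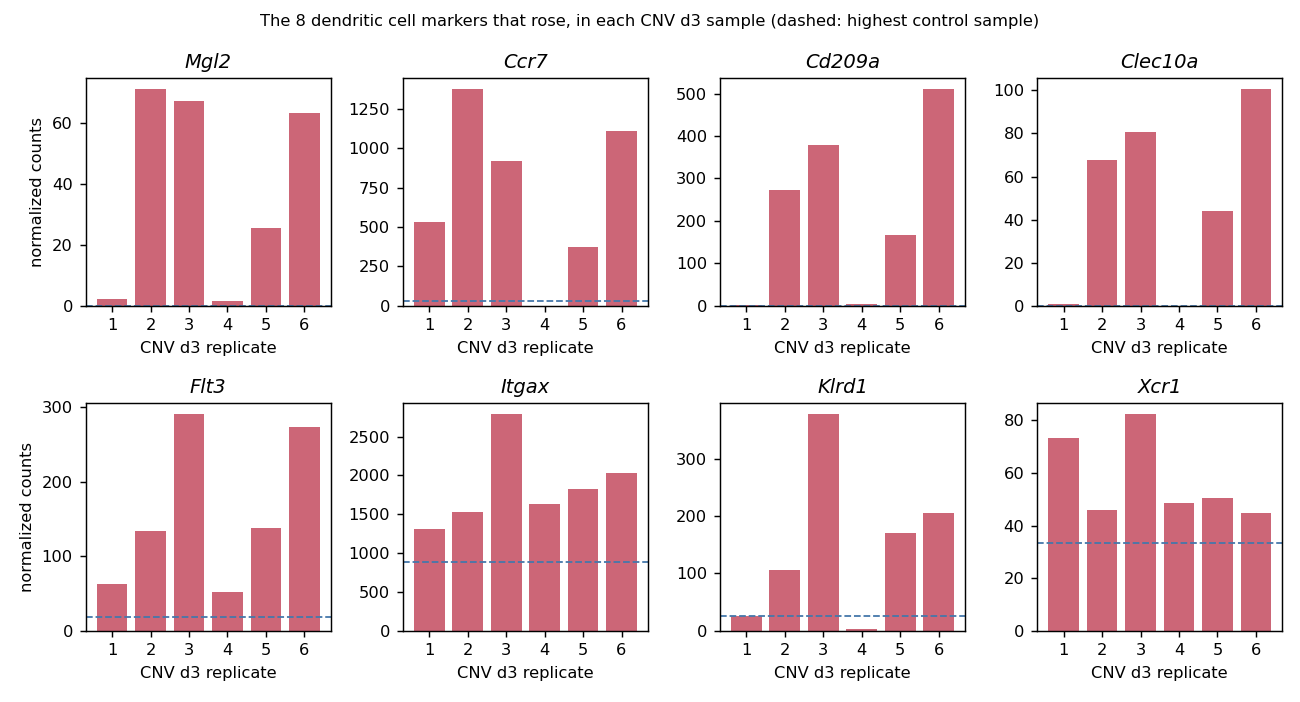
Normalized counts (vertical axis, its own scale in each panel) of the 8 dendritic cell markers that rose, in CNV d3 replicates 1 to 6 (bars), with the highest control sample as a dashed line. Mgl2, Cd209a, Clec10a, Flt3 and Klrd1 were lower in replicates 1 and 4 than in the other 4 samples, and Ccr7, Itgax and Xcr1 were not.

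Among 12 dendritic cell markers with *Mgl2* among them, 8 rose, 7 of them other than *Mgl2*, beside 8.29% of all genes. *Zbtb46* (log2 fold change 1.46), *Siglecf* (-0.01), *Clec9a* (-0.10) and *Batf3* (-0.25) did not pass. Means in control and CNV d3 were 169.1 and 135.6 for *Zbtb46*, 4.49 and 3.85 for *Clec9a* and 372.5 and 295.3 for *Batf3*. These were named after their values were seen. Without *Mgl2*, the summed level of the dendritic cell markers was 2262 to 3229 normalized counts in control and 3886 to 7241 in CNV d3. *Siglecf* and *Itgax* together carried most of this sum, with means of 1659 and 692 in control and 1615 and 1852 in CNV d3. In the control samples, 3 of the 12 markers were at 0 throughout. Of 13 monocyte markers other than *Chil3*, 6 rose. These 13 summed to 392.8 to 1234 in control and 5207 to 52510 in CNV d3. With *Chil3* counted, 5 of the 14 had no read in any control sample. *Fn1* carried most of this sum in CNV d3, and without it the sum was 385.7 to 1228 in control and 1444 to 5124 in CNV d3. *Ccr2*, the chemokine receptor of inflammatory monocytes, was at 120.4 to 1351 normalized counts in CNV d3 and at most 95.3 in control, while *Ly6c2*, which encodes the protein gated against, was at 0 in control and at 1.73 to 25.1 in CNV d3. The 12 microglia markers summed to 1214000 to 1372000 in control and 633000 to 938200 in CNV d3. The part of such cells in the values of *Mgl2* and of the other markers was not tested.

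*Arg1* (chr10:24915221-24927484, minus strand), the arginase most used as a marker of alternative activation, was scarce in both groups. In control replicates 1 to 6 it was at 2.15, 0, 0, 48.7, 0 and 27.8 normalized counts, and in CNV d3 replicates at 0.739, 25.9, 14.3, 4.33, 14.4 and 47.4. The highest value of all belonged to a control sample, and the groups overlapped. Means were 13.1 ± 20.6 in control and 17.8 ± 16.9 in CNV d3 (SD, n = 6 each), resting on 64 and 128 reads in all. The log2 fold change of 1.55 had a 95% confidence interval from -1.01 to 4.11, a limma adjusted p of 0.471 and a two-sided exact permutation p of 0.268, and edgeR and DESeq2 both gave a log2 fold change of 0.45. The difference was smaller than the spread between samples.

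*Chil3* (chr3:106147554-106167564, minus strand), a chitinase-like secreted protein also listed among monocyte markers, had no read in any control sample and 0, 7, 1, 0, 11 and 17 reads in CNV d3 replicates 1 to 6. It was absent from the reads of replicates 1 and 4, the samples low for *Mgl2*. The mean of 4.95 ± 5.75 normalized counts in CNV d3 (SD, n = 6) lay under the 5.96 that 3 reads are worth in the shallowest control sample, and no fold is given. The limma adjusted p was 0.0833, and 0.0473 without CNV d3 replicate 1 and 0.0489 without replicate 4. The two-sided exact permutation p was 0.0606.

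*Egr2* (chr10:67535475-67542188, plus strand), a zinc finger transcription factor of alternatively activated macrophages, was the marker with the lowest level per exon length in CNV d3. It had 7, 5, 10, 0, 0 and 1 reads in control replicates 1 to 6 and 4, 2, 0, 0, 0 and 0 in CNV d3. Its normalized counts averaged 4.30 ± 4.51 in control and 0.771 ± 1.26 in CNV d3 (SD, n = 6 each), both under the worth of 3 reads in the shallowest sample. The groups overlapped, and the log2 fold change of -1.25 (95% confidence interval -2.74 to 0.24) had a limma adjusted p of 0.298.

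*Odc1* (chr12:17544794-17551505, plus strand), the first enzyme of polyamine synthesis, had a lowest, median and highest value of 215.1, 286.2 and 516 normalized counts in control and 626.6, 760.2 and 902.7 in CNV d3. Control replicate 5 was the highest of its group and still below every CNV d3 sample. Its mean was 2.43-fold higher in CNV d3 (313 ± 111 against 760 ± 124 normalized counts, SD, n = 6 each). *Odc1* rose with a log2 fold change of 1.33 (SE 0.21, limma adjusted p = 0.000745, exact permutation p = 0.00216), and kept an adjusted p under 0.05 in all 21 alternatives.

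*Acod1* (chr14:103046977-103056573, plus strand), the enzyme that makes itaconate, was at 92.3, 55.7, 90.1, 96.4, 297.1 and 0 normalized counts in control replicates 1 to 6 and at 192.1, 276.8, 434.9, 255.3, 397.3 and 420.3 in CNV d3. Only control replicate 5 reached into the range of CNV d3, and control replicate 6, the shallowest sample, had no read. Means were 105 ± 101 and 329 ± 101 normalized counts (SD, n = 6 each), 3.13-fold apart. Their log2 fold change was 2.69 (SE 1.00) with a limma adjusted p of 0.0968, which misses the threshold, and the 95% confidence interval ran from 0.56 to 4.82. The two-sided exact permutation p was 0.00866. Without control replicate 6 the log2 fold change was 1.57 and the adjusted p 0.0236, and DESeq2 gave 1.64 and 0.0421.

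*Socs3* (chr11:117966079-117970047, minus strand), the feedback inhibitor of IL-6-type receptors, had a lowest, median and highest value of 492.1, 977.6 and 1294 normalized counts in control and 1873, 2321 and 3638 in CNV d3. CNV d3 replicate 3 was the highest sample and control replicate 3 the lowest, and no sample of one group reached the other. Means were 937 ± 299 and 2449 ± 648 normalized counts (SD, n = 6 each), 2.61-fold apart. *Socs3* rose by a log2 fold change of 1.42 (SE 0.23, limma adjusted p = 0.000743, exact permutation p = 0.00216), just under the size set for a DEG, and passed in all 21 alternatives.

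**Figure D3:**
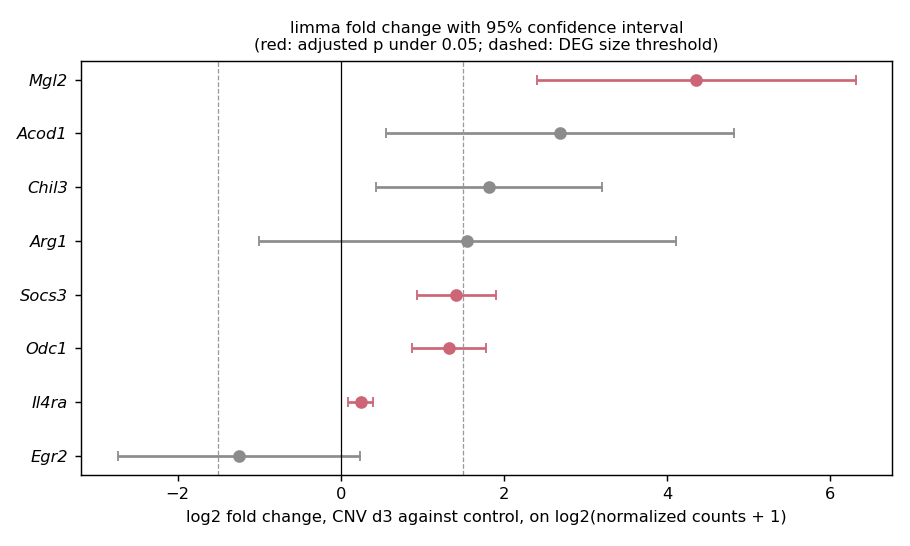
Log2 fold change of each marker, CNV d3 against control, on log2(normalized counts + 1) (horizontal axis), with its 95% confidence interval, in red where the limma adjusted p was under 0.05. The interval of Il4ra is narrow and near 0 (0.09 to 0.40), and those of Arg1 (-1.01 to 4.11) and Egr2 (-2.74 to 0.24) include 0.

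Levels were compared between genes per kb of merged exon. In control, *Il4ra* stood highest at 1085 ± 74.2 normalized counts per kb (SD, n = 6), followed by *Socs3* at 324 ± 104 and *Odc1* at 91.9 ± 32.5, and the ranges of these 3 did not overlap. *Acod1* came next at 40.1 ± 38.4, with a range that overlapped that of *Odc1*. *Arg1* (5.89) and *Egr2* (1.27) were lower still, and *Mgl2* and *Chil3* were at 0. In CNV d3, *Il4ra* at 1284 ± 86.3 and *Socs3* at 847 ± 224 overlapped in range, with *Il4ra* the higher in 5 of 6 samples. *Odc1* was at 223 ± 36.5, *Acod1* at 126 ± 38.6 and *Mgl2* at 18.4 ± 15.6 normalized counts per kb, and the ranges of *Socs3*, *Odc1*, *Acod1* and *Mgl2* did not overlap between neighbours in this order. Below them, *Arg1* was at 8.01 ± 7.61, *Chil3* at 3.03 ± 3.52 and *Egr2* at 0.227. In the order of 27238 genes by level per kb, *Socs3* moved from rank 2826 in control to rank 1165 in CNV d3, *Odc1* from 6694 to 3945, and *Il4ra* from 803 to 722.

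**Figure D4:**
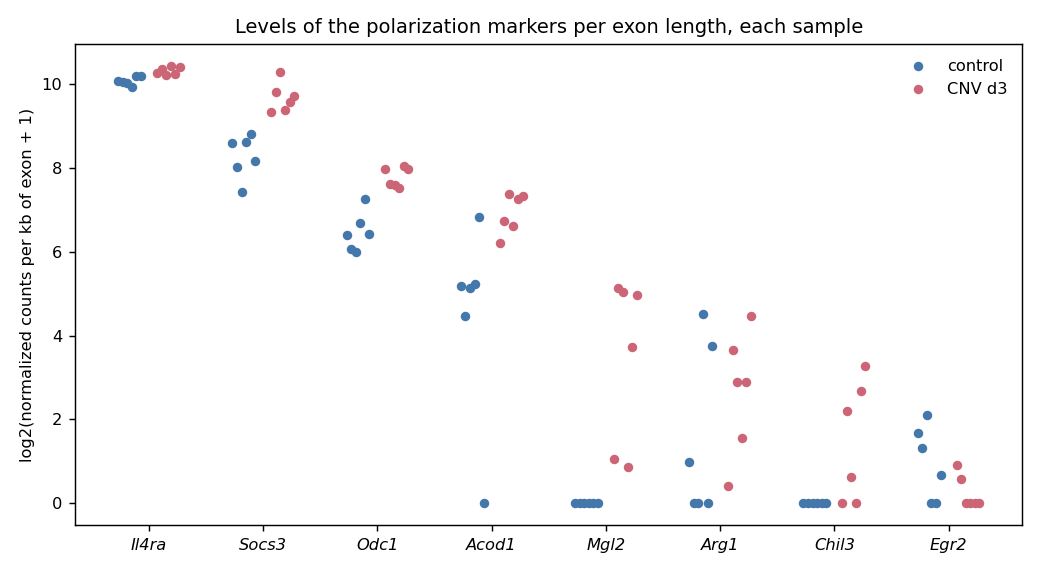
Level of each marker as log2(normalized counts per kb of exon + 1) (vertical axis) in each control (blue) and CNV d3 (red) sample, ordered by the mean in CNV d3. The means in CNV d3 descend from Il4ra over Socs3 and Odc1 to Acod1, which is at 0 in control replicate 6. Mgl2, Arg1, Chil3 and Egr2 each include samples near or at 0.

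The genes whose deviations from the group means were most like those of a marker were sought among 9782 others with at least 10 reads in every sample, which *Il4ra*, *Socs3* and *Odc1* also had. For *Il4ra* these were *Hyou1*, *Fam168a* and *Srp68* (Pearson r of 0.93, 0.91 and 0.87 over the 12 samples). For *Socs3* they were *Srsf10*, *Septin9* and *Tpd52* (0.92, 0.89 and 0.89), which became 0.87, 0.84 and 0.81 without control replicate 3, where *Septin9* ranked 8 and *Tpd52* 27. For *Odc1* they were *Mtrex*, *Il13ra1* and *Wdr36* (0.90, 0.89 and 0.88), which became 0.80, 0.87 and 0.77 without control replicate 5, at ranks 8, 2 and 17. The samples share libraries and size factors, and these values are a description.

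The other genes of the pathways were taken from 9 fixed lists, also chosen with earlier results of these data known. The lists had 153 entries, of which 138 were measured. Of these, 33 rose and 13 fell, where 8.29% of all 27299 genes rose and 4.57% fell. Among the 12943 genes that passed the filter on low counts, 2193 rose and 1546 fell, a larger share each way. How many of the 138 passed this filter was not counted. Among IL-4 and IL-13 ligands, receptors and signalling genes, 3 of 11 rose and 0 fell, with a median log2 fold change of -0.03. None fell by edgeR either, while 1, *Stat6*, was lower at an unadjusted p under 0.05, by DESeq2, with a pseudocount of 5 and with the filter on low counts. *Jak3*, a kinase that signals from the common gamma chain, rose from 1346 ± 280 to 3349 ± 552 normalized counts (SD, n = 6 each, log2 fold change 1.33, SE 0.15), and *Tyk2*, a further JAK kinase, rose with a log2 fold change of 0.67. *Cish*, a SOCS family inhibitor induced by STAT5, rose from 0 in all control samples to at most 12.5 normalized counts, with a mean of 5.22 that lies under the floor. *Stat6* itself was at 5696 ± 345 in control and 4894 ± 174 in CNV d3 (log2 fold change -0.22, adjusted p = 0.0526) and did not overlap between the groups. With any 1 of the 12 samples left out, its adjusted p was 0.0156 to 0.0455, so it passed in each of these fits and missed with all samples. *Il13ra1*, which pairs with IL-4Ra, had a log2 fold change of -0.03 and *Il2rg*, the common gamma chain, one of -0.34, with adjusted p-values of 0.901 and 0.214. *Il4* had a mean of 1.88 normalized counts in control and 0.807 in CNV d3, both under the floor.

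Of 23 other alternative activation markers, 7 rose and 0 fell, with a median log2 fold change of 2.14, or 1.70 with genes without control reads at their lower bound. None fell by edgeR or at an unadjusted p under 0.05, and 1 fell by DESeq2. *Fn1*, the matrix protein fibronectin and also one of the monocyte markers, rose most, from 22.1 ± 30.0 to 19210 ± 17640 normalized counts (SD, n = 6 each, log2 fold change 10.70). It was again lowest in CNV d3 replicates 1 (3763) and 4 (4164). *Il1rn*, the natural antagonist of the IL-1 receptor, rose with a log2 fold change of 6.27 (SE 1.14) and was at 250.1 to 494.2 normalized counts in CNV d3, replicates 1 and 4 included, and at 0 in 4 of 6 control samples. *Mrc1*, the mannose receptor, was at 350 ± 276 in control and 113 ± 81.1 in CNV d3 (log2 fold change -1.44, adjusted p = 0.233). Without CNV d3 replicate 5 or 6, 4 of the 23 rose in place of 7.

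Of 20 other classical activation markers, 4 rose and 4 fell, and the median log2 fold change was 0.50, or 0.11 with the lower bound for the gene without control reads. *Gbp2*, a GTPase induced by interferon, rose from 447 ± 202 to 1727 ± 420 normalized counts (SD, n = 6 each, log2 fold change 2.03, SE 0.27) and passed in all 21 alternatives. *Cd40*, a costimulatory receptor (log2 fold change 3.95), and the cytokine *Il1b* (1.47) passed in 8 and 6 of the 21, and *Tnf* (1.35) completed the 4. *Il6*, a cytokine whose receptor SOCS3 restrains, fell from 227 ± 41.8 to 34.2 ± 24.1 normalized counts (log2 fold change -3.07, SE 0.52, limma adjusted p = 0.00116), with every CNV d3 sample below every control sample. *Irf5*, a transcription factor of classical activation, fell with a log2 fold change of -0.40, *Cd86* with -0.39 and *Cd80* with -0.80, the last in 5 of 21 alternatives. *Tnf* and *Cd86* were named after their values were seen. By edgeR 1 of the 20 rose, and 1 rose without any one of control replicates 2, 4 and 6 or of the 6 CNV d3 replicates.

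In the list of genes that feed or regulate *Nos2*, 6 of 12 fell and 0 rose, with a median log2 fold change of -0.46. None rose by edgeR, while 2 were higher at an unadjusted p under 0.05 and 1 by DESeq2. Those with the largest decrease were *Ly96* (log2 fold change -0.93), *Cd14* (-0.79) and *Nfkb1* (-0.66), which encode a cofactor and a coreceptor of the lipopolysaccharide receptor and an NF-kB subunit. *Gch1*, which makes the cofactor of nitric oxide synthases, had a log2 fold change of 0.59 and an adjusted p of 0.114.

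Around *Arg1* and *Odc1*, 7 of 28 arginine and polyamine genes rose and 1 fell, with a median log2 fold change of 0.26. *Ass1*, which rebuilds arginine from citrulline, rose from 5.03 ± 7.21 to 88.8 ± 56.9 normalized counts (SD, n = 6 each, log2 fold change 4.43, SE 0.84). *Otc*, an enzyme of the urea cycle, rose from 0 in all control samples to a mean of 15.0, at least 2.51-fold. *Azin1* and *Azin2*, inhibitors of the antizyme that marks ODC1 for breakdown, had log2 fold changes of 0.56 and 3.35, the latter past the threshold in 6 of 21 alternatives, and the antizyme *Oaz1* rose too (0.76, SE 0.13). *Arg2*, the mitochondrial arginase, was under the floor in both groups, and *Slc7a2*, an arginine importer, had a log2 fold change of 2.53 and an adjusted p of 0.0791. *Slc3a2*, the partner chain of several amino acid transporters, fell with a log2 fold change of -0.28, in 7 of 21 alternatives.

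Around *Acod1*, 7 of 20 itaconate and citrate genes rose and 1 fell, with a median log2 fold change of 0.26. The changes were small, with *Sdhb* (log2 fold change 0.64), a subunit of succinate dehydrogenase that itaconate inhibits, *Slc25a1* (0.62), the citrate carrier, and *Acly* (0.53), which splits citrate, at the head of the list. *Nfe2l2*, a transcription factor that itaconate can activate, fell with a log2 fold change of -0.30, in 7 of 21 alternatives.

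Of 17 genes for IL-6 and IL-10 receptors, JAK2, STAT3 and SOCS proteins, 4 rose and 1 fell, with a median log2 fold change of 0.13. *Il6st*, the signalling chain that SOCS3 binds, fell from 21010 ± 2968 to 11160 ± 2234 normalized counts (SD, n = 6 each, log2 fold change -0.92, SE 0.13), and the groups did not overlap. *Stat3* rose from 5020 ± 288 to 6724 ± 517 (log2 fold change 0.42, SE 0.08). *Socs2* had no read in any control sample and was at 24.2 to 102 normalized counts in CNV d3, at least 9.04-fold higher in the mean. *Jak2* (0.82) and *Lifr* (0.44) rose by limma and kept this call in 16 and 11 of 21 alternatives. *Socs1* (log2 fold change -0.48, adjusted p = 0.557) and *Il10ra* (0.17, adjusted p = 0.323) did not pass. Without CNV d3 replicate 3, 4 or 6, 2 of the 17 rose in place of 4.

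None of the 5 EGR factors and NAB corepressors rose or fell by limma, while 1 was higher at an unadjusted p under 0.05, 0 by edgeR and 1 by DESeq2, and 0 were lower by any of them. *Egr1*, an immediate early gene, was at 215 ± 188 in control and 659 ± 433 in CNV d3 (SD, n = 6 each, log2 fold change 2.12, adjusted p = 0.0572). *Egr3* and *Nab2*, a corepressor of EGR factors, had log2 fold changes of 1.25 and 0.22 with adjusted p-values of 0.333 and 0.521. Without control replicate 3, 1 of the 5 rose. Of the chitinase-like and resistin-like families, 2 of 10 genes were measured, and *Chid1* rose with a log2 fold change of 0.58, in 5 of 21 alternatives.

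**Figure D5:**
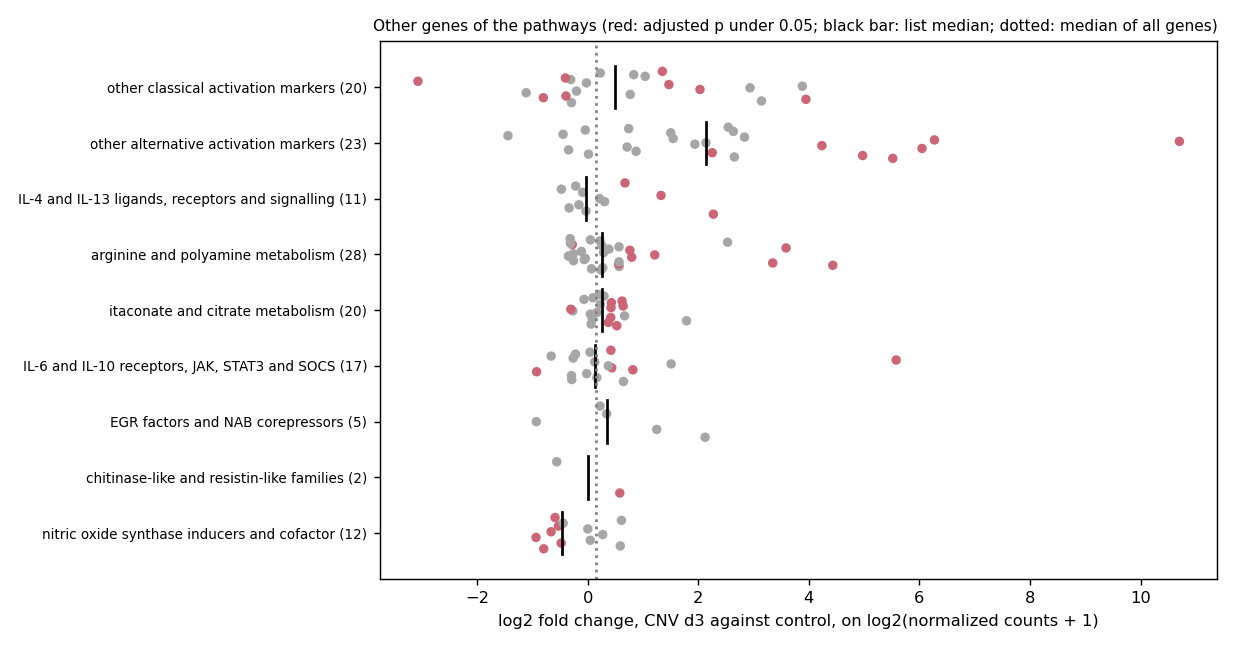
Log2 fold change, CNV d3 against control, on log2(normalized counts + 1) (horizontal axis) of each gene (points) of the 9 pathway lists, with the number of measured genes in brackets, the list median as a black bar and the median of all genes (0.15) dotted. The other alternative activation markers have the highest median (2.14) and the nitric oxide synthase inducers the lowest (-0.46).

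Genes of other cells that a retinal sort could hold were checked as well, and of all genes 8.29% rose and 4.57% fell. Of 9 neutrophil markers 1 rose, and 6 had no read in any control sample, with sums of 0 to 26.4 normalized counts in control and 0.836 to 40.3 in CNV d3. None of 10 photoreceptor markers passed, with sums of 784.8 to 7296 in control and 628 to 13090 in CNV d3, highest in CNV d3 replicates 4 and 6. Without these 2 samples and control replicate 3, the highest of its group, the adjusted p of *Il4ra* was 0.136, while *Socs3*, *Odc1* and *Mgl2* passed. Of 10 Mueller glia markers, which include *Apoe*, 4 rose and 1 fell, with sums of 19670 to 41420 in control and 59520 to 102500 in CNV d3. *Apoe* carried most of this sum, with means of 20870 in control and 68950 in CNV d3. Of the next largest, *Vim* went from 175.1 to 2277, *Glul* from 5723 to 4734 and *Slc1a3* from 2117 to 1358. The study also reports *Apoe* as raised in these microglia. Among 10 border macrophage markers 3 rose (2553 to 4272 and 3150 to 4436), and 0 of 5 T and NK cell markers passed (420 to 1025 and 246.1 to 558.3). The part of these genes in the results was not tested.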

How the data were processed

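RNA-seq of retinal microglia from 6 CNV d3 and 6 control samples was analysed. Per the labels, each control sample and replicate 4 of CNV d3 came in 2 parts, which are merged in the values. The other CNV d3 samples were listed whole, so this feature nearly follows the groups. Its part in the results was not tested. The authors mapped reads with STAR 2.7.2b to the mouse genome (GRCm38, Gencode M25), counted them per gene with featureCounts 1.6.4 at default settings and removed genes without reads. The deposited signal is the read count divided by the DESeq2 size factor of the sample (normalized counts). Deposited group means and the authors' fold changes and adjusted p-values were not used, and 0 columns of other samples were present.

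All values were whole multiples of 1 read (100% in each sample, tolerance 0.001), so reads were recovered. The values not being counts, the main test was limma 3.58.1 in R 4.3.3 on log2(normalized counts + 1) with a mean-variance trend, no filter and no block. edgeR 4.0.16 (TMM) and DESeq2 1.42.0 were run on the recovered reads. Other alternatives were pseudocounts of 0.5 and 5, a filter of 10 reads in 6 samples, TMM factors, limma without trend, other thresholds, the replicate block, leaving out each sample and, added after seeing the data, leaving out the 3 samples of highest photoreceptor signal. Each marker was also compared by a two-sided exact permutation test. The scripts were tested on simulated data. Reads had no molecular identifiers, so floors of 3 reads cover counting error only.

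The markers and lists were chosen with earlier results of these data known. Named were all markers, their direct partners, and of each list up to 3 genes with the largest change each way among those with adjusted p under 0.05, and a few others beside *Mgl2*. Some partners and marker genes were not analysed here. Exon lengths and coordinates came from Gencode M21, which matched 27238 of 27299 genes by Ensembl identifier. Promoter windows came from RefSeq (GRCm38.p6).

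Nothing states that the replicate numbers pair samples of the 2 groups. In deviations from the group means, same-numbered samples correlated between -0.06 and 0.09 over 9783 genes, which cannot exclude a pairing.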

Additional observations from a re-analysis of the deposited data

Results flagged for a closer look

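In 72 groups of 6 samples (the markers and the named pathway genes, each in control and in CNV d3), the gap between the highest or lowest sample and its neighbour was set against the range of the group, and 3 groups passed the 95% critical value of Dixon. Chance passes about 1 in 20 groups. *Acod1* in control replicate 5 was at 297.1 normalized counts, above the other 5 control samples, with a gap of 0.676 of the range. *Ass1* in control replicate 3 was at 19.14 normalized counts, with a gap of 0.736 of the range. *Il1b* in CNV d3 replicate 3 was at 915.4 normalized counts, with a gap of 0.705 of the range.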

How the results depend on the processing

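No log2 fold change of the 8 markers changed direction in 165 values from the alternatives, and 155 kept their side of the threshold, 6 lost it and 4 gained it. *Socs3* and *Odc1* passed in all 21 alternatives and *Mgl2* in all 20 that could test it. The 6 losses were all of *Il4ra*, with an adjusted p of up to 0.219 (limma without trend). The number of markers that rose was 3 to 5 with single samples left out, and 3 with the replicate block in place of 4. One marker was an increased DEG, and 1 to 2 were with single samples left out (2 without control replicate 5 or 6 or CNV d3 replicate 1 or 4). The filter on low counts, which removed *Mgl2*, *Chil3* and *Egr2*, gave 0 such DEG, DESeq2 gave 2, and a size threshold of 1 gave 3. Over all genes, decreased DEG were 293 by limma and 572 by DESeq2, beside 1068 and 908 increased DEG. Of 585 values for the named pathway genes, 464 kept their side of the threshold, 121 lost it and 0 reversed. The causes were not tested. The replicate block was an alternative only, since nothing states a pairing. No pair of same-numbered samples correlated above 0.1, and only control replicate 3 matched its own number best. Few reads carry *Arg1*, *Chil3* and *Egr2*, which rest on 64 and 128, 0 and 36, and 23 and 6 reads in control and CNV d3.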
